A study of Mus musculus with 59 samples.

Results

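Glucose uptake and glycogen genes were followed in muscle of tumor-bearing mice through 10 genes chosen by symbol: the glucose transporters Slc2a4 and Slc2a1, the hexokinases Hk1 and Hk2, the glycogen genes Ppp1r3c, Gys1 and Pygm, the phosphofructokinase Pfkm, its activator-producing enzyme Pfkfb3 and the lactate dehydrogenase Ldha. All 10 were found among the 47643 gene symbols of the expression table, and all 10 passed the filter on low values in every comparison. RNA-seq had been run on 59 muscle samples from female NCI Ath/nude mice aged 4 months, and expression is given as TPM (an abundance per transcript length that sums to the same total in every library). Every mouse carried a patient-derived human melanoma xenograft, either a cachectic one, which causes muscle wasting, or a non-cachectic one. Diaphragm libraries came from non-cachectic mock (n = 9), cachectic mock (n = 10), non-cachectic rFibcd1 (n = 10) and cachectic rFibcd1 (n = 10) mice, where rFibcd1 is recombinant Fibcd1, a secreted protein, injected into the peritoneal cavity, and mock is the control injection. Tibialis anterior and soleus libraries came from mice with the non-cachectic (n = 5 each) or the cachectic melanoma (n = 5 each), with no injection named in their labels. The mice lack T cells, each melanoma is 1 xenograft and no group without a tumor was analysed here, so cachectic means against the other melanoma and not against health. The labels call the samples biological replicates without saying from which animals the libraries of different muscles came, and p-values measure the spread between these samples.

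Glucose enters a muscle fiber through transporters in its surface membrane. Slc2a4 encodes GLUT4, which insulin and contraction bring to the surface from stores inside the cell, while Slc2a1 encodes GLUT1, a transporter that works without that step and is found in many cell types, endothelium among them. Hexokinases trap glucose as glucose-6-phosphate, which is either stored as glycogen by glycogen synthase (Gys1) or broken down in glycolysis, where Pfkm is the muscle form of the phosphofructokinase, Pfkfb3 makes the fructose-2,6-bisphosphate that activates it, and Ldha turns pyruvate into lactate. Pygm, the muscle glycogen phosphorylase, releases glucose units from glycogen, and Ppp1r3c (also called PTG) brings protein phosphatase 1 to glycogen, where it switches glycogen synthase on and glycogen phosphorylase off. Fast fibers are known for high glycolytic capacity, and the diaphragm and soleus for oxidative metabolism.

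The members are spread over 8 chromosomes, with Ppp1r3c (chr19:36731731-36736653, minus strand) and Pygm (chr19:6384399-6398459, plus strand) both on chromosome 19 and Gys1 (chr7:45434844-45456619, plus strand) and Ldha (chr7:46841475-46855627, plus strand) both on chromosome 7 of GRCm38. Slc2a1 lies at chr4:119108711-119137983, plus strand, and Slc2a4 at chr11:69942539-69948188, minus strand. The start regions of Ppp1r3c and Slc2a1 are printed here because these were the 2 members called higher with the cachectic melanoma in all 3 muscles. Each run holds the 219 bases from 250 to 32 before the RefSeq transcript start, read 5′ to 3′ along the gene on GRCm38.p6, at chr19:36736636-36736854 (minus strand) and chr4:119108495-119108713 (plus strand), with the letters ACGTG or their reverse complement CACGT in capitals, and CACGTG where both overlap.
Ppp1r3c: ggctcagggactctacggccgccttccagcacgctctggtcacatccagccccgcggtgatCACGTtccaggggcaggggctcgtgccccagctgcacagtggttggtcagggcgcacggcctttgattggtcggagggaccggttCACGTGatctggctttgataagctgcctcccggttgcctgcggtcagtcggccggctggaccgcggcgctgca
Slc2a1: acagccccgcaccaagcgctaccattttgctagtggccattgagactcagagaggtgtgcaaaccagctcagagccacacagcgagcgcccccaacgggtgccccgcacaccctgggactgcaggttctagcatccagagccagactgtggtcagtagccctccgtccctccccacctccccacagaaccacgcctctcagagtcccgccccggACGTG
CACGTG is the E-box that clock and other basic helix-loop-helix factors can bind, and ACGTG is the core that hypoxia-inducible factors can bind. The E-box of Ppp1r3c began 104 bases before the start, a second CACGT began 189 bases before it, and the ACGTG of Slc2a1 began 36 bases before its start. Over windows of 300 bases (250 before to 50 after the start), 9 of the 10 members matched 15 RefSeq promoters. Searched on both strands, CACGTG was in 4 of these 15, against 7.15% of 32851 promoters, and ACGTG, which every CACGTG contains, was in 10 of the 15, against 19.6%. The D-box TTATGTAA was in 0 of the 15 (0.938% of all promoters) and the glucocorticoid motif TGTTCT in 2 (19.0%). Both printed promoters are rich in G and C, with 65.3% of the whole window against a median of 52.7% over all promoters. A match says only that these letters are present.

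Sequencing depth is unknown because TPM does not keep it, and 16436 to 19456 genes were above 0 per library. Mitochondrial transcripts took a smaller share of TPM with the cachectic melanoma, with 32.9% to 41.6% against 41.9% to 51.9% in mock diaphragm. In tibialis anterior the share was 25.1% to 45.6% against 47.3% to 51.7%, and in soleus 24.1% to 34.6% against 38.96% to 44.0%. TPM of the other genes is relative to that share. The median log2 difference of all genes tested was 0.20, 0.41 and 0.09 in the same order. Without mitochondrial transcripts it was 0.0032, 0.23 and -0.12. Directions below were therefore checked after median-ratio scaling, which sets that median close to 0, and after removal of the mitochondrial transcripts. The libraries also fall into 2 states of a gene block marked by Pcna-ps2 (TPM over or under 2). The high state held 3 of 9 non-cachectic mock, 9 of 10 cachectic mock, 6 of 10 non-cachectic rFibcd1 and 8 of 10 cachectic rFibcd1 diaphragm libraries. It held all 5 cachectic and none of the 5 non-cachectic libraries of tibialis anterior, and likewise of soleus, so there the state and the melanoma cannot be told apart. In each group the 6 muscle fiber markers summed to at least 42262 TPM, and no marker of that list was at 0. In whole muscle, fewer cells of a type and less RNA per cell cannot be told apart.

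**Figure D1:**
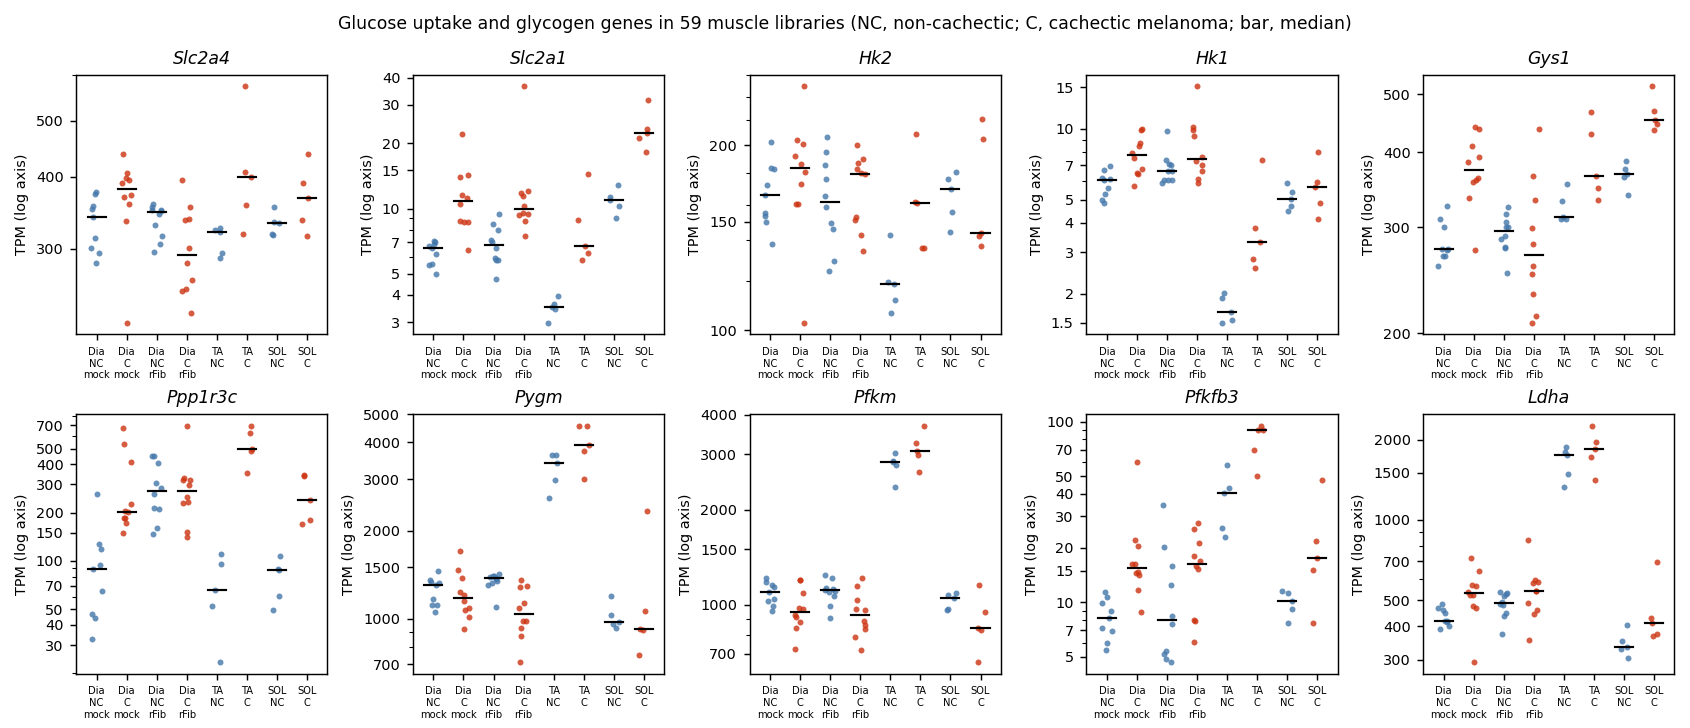
TPM of each of the 10 genes (log axis) in the 8 groups of 3 muscles, with 1 point per library and a bar at the median of each group. Ldha, Pygm, Pfkm and Pfkfb3 stand highest in tibialis anterior, Slc2a1 and Hk1 stand lowest in non-cachectic tibialis anterior, and Ppp1r3c lies higher in the cachectic than in the non-cachectic libraries of tibialis anterior (non-cachectic 23.6 to 111, cachectic 354 to 689.9 TPM).

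In all 3 muscles of mice with the non-cachectic melanoma Pygm and Pfkm were the most abundant of the 10 genes, and Pfkfb3, Slc2a1 and Hk1 the least. In the mock diaphragm the medians ran from 1308 TPM for Pygm, 1099.7 for Pfkm and 418 for Ldha through 340.5 for Slc2a4, 276 for Gys1, 166 for Hk2 and 88.8 for Ppp1r3c to 8.19 for Pfkfb3, 6.60 for Slc2a1 and 6.08 for Hk1. The ranges of neighbours in this order overlapped for several of them, such as Slc2a1 (5.00 to 7.06) and Pfkfb3 (5.42 to 11.4).

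In most families 1 form dominated. Slc2a4 held a median of 89.8% to 95.0% of the TPM of 6 glucose transporter genes across the 8 groups, and Slc2a1 held 1.13% in non-cachectic tibialis anterior and 5.95% in cachectic soleus. Hk2 was the main hexokinase gene throughout (89.7% in cachectic soleus and 97.0% in non-cachectic tibialis anterior). Pygm and Pfkm each held over 97% of their families in every group. Ldha shared its family with Ldhb, whose product favors the reverse reaction, and its share was 22.3% in the non-cachectic mock diaphragm, 17.0% in soleus and 92.9% in tibialis anterior. Among the glycogen targeting subunits Ppp1r3c held 65.0% in the diaphragm, 33.8% in tibialis anterior and 59.8% in soleus of non-cachectic mice, and Ppp1r3a, the subunit found mainly in striated muscle, held 65.0% in tibialis anterior.

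The 3 muscles were compared within mice of the non-cachectic melanoma, to set the levels against which the melanomas are read. This fit took the 39 libraries of the 6 groups without rFibcd1, and a gene was called at a limma adjusted p under 0.05 over all 13501 genes tested. Of the 10 members, 8 were called between diaphragm and tibialis anterior (72.5% of all genes), 7 between tibialis anterior and soleus (69.5%) and 2 between diaphragm and soleus (38.8%). The Dunn test of the study was also run, called here at an adjusted p under 0.05 and without the study's fold limits. It called Ldha, Pfkfb3, Hk1 and Hk2 in the first pair (51.0% of all genes), and Ldha, Pfkfb3, Pygm and Slc2a1 in the second (37.0%). It called none in the third (8.73%), where 2 had an unadjusted p under 0.05. The adjusted p there was 0.106 for Slc2a1 and 0.0519 for Gys1. The median log2 difference was 0.44 (diaphragm minus tibialis anterior), -0.47 (tibialis anterior minus soleus) and -0.037 (diaphragm minus soleus) over all genes, and -0.048, -0.14 and 0.044 over the members.

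Ldha was far higher in tibialis anterior. Its 5 non-cachectic libraries held 1330.4, 1487, 1752, 1803 and 1879.7 TPM in tibialis anterior and 305, 328, 335, 351 and 403 TPM in soleus, and the diaphragm libraries 392 to 483 TPM (median 418). Tibialis anterior overlapped neither of the other muscles, and the log2 difference was 2.25 (SE 0.16, adjusted p = 3.58e-14) against soleus and -1.92 (SE 0.14, adjusted p = 5.71e-14) for diaphragm minus tibialis anterior. Pygm followed the same order, at 2583, 2978, 3413, 3635 and 3637 TPM in tibialis anterior, 928, 957, 978, 1033 and 1197 TPM in soleus and 1052 to 1456 TPM (median 1308) in the diaphragm. Its log2 difference was 1.67 (SE 0.18, adjusted p = 1.67e-09) between tibialis anterior and soleus and -1.38 (SE 0.16, adjusted p = 4.08e-09) between diaphragm and tibialis anterior. Pfkm, at 2365, 2771, 2833, 2842 and 3021 TPM in tibialis anterior, 965, 972, 1049, 1074 and 1091 TPM in soleus and 955 to 1217 TPM (median 1099.7) in the diaphragm, differed by 1.42 (SE 0.12, adjusted p = 1.95e-12) and -1.34 (SE 0.10, adjusted p = 2.25e-13). Pfkfb3 varied more between libraries, at 23.1, 25.7, 40.3, 43.1 and 57.7 TPM in tibialis anterior, 7.69, 9.18, 10.2, 11.3 and 11.6 TPM in soleus and 5.42 to 11.4 TPM (median 8.19) in the diaphragm. Its differences of 1.76 and -2.02 were also called. These 4 genes kept their direction and their calls after both other scalings.

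Slc2a1 and Hk1 ran the other way. Hk1 was at 1.505, 1.54, 1.66, 1.91 and 2.02 TPM in tibialis anterior, 4.46, 4.70, 5.01, 5.39 and 5.87 TPM in soleus and 4.83 to 6.96 TPM (median 6.08) in the diaphragm, so that tibialis anterior lay below both. The log2 difference was 1.33 (SE 0.14, adjusted p = 3.48e-10) for diaphragm minus tibialis anterior and -1.16 (SE 0.16, adjusted p = 1.26e-07) for tibialis anterior minus soleus. Slc2a1 was lowest in tibialis anterior (2.98, 3.43, 3.52, 3.65 and 3.95 TPM), higher in the diaphragm, at 5.00 to 7.06 TPM (median 6.60), and highest in soleus (9.03, 10.3, 10.97, 11.3 and 12.9 TPM). All 3 of its steps were called, at 0.69 for diaphragm minus tibialis anterior, -0.71 for diaphragm minus soleus and -1.40 for tibialis anterior minus soleus, though the first was 0.24 and no longer called after median-ratio scaling (adjusted p = 0.106). The endothelial markers, 6 genes none of which was at 0, were also lowest in tibialis anterior, with a summed level of 95.0 to 132 TPM in tibialis anterior, 183 to 244 TPM in the diaphragm and 167 to 212 TPM in soleus, and their part in the levels of Slc2a1 and Hk1 was not tested. Gys1 was lower in the diaphragm than in soleus, with 259 to 326 TPM (median 276) against 339, 364, 368, 375 and 387 TPM, a difference of -0.37 (SE 0.084, adjusted p = 0.000699).

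Calls on the insulin-responsive pair depended on the scaling. Hk2 was called at 0.47 for diaphragm minus tibialis anterior and -0.46 for tibialis anterior minus soleus, and had the opposite sign after median-ratio scaling (-0.07 and 0.14, neither called). Slc2a4 differed by 0.091 and -0.092 as deposited, neither of them called, and by -0.45 (adjusted p = 8.58e-06) and 0.51 (adjusted p = 1.80e-05) after median-ratio scaling. The remaining call, Gys1 between diaphragm and tibialis anterior (-0.19, adjusted p = 0.0455), was lost in 11 of 39 fits that left out 1 library, and was -0.73 (adjusted p = 1.70e-10) after median-ratio scaling. Gys1 between tibialis anterior and soleus (-0.18, not called) was called with the column number as a replicate block (adjusted p = 0.0262), and had the opposite sign after median-ratio scaling (0.42). The level of Ppp1r3c was not called between any 2 muscles, and ranged over 32.5 to 260.3 TPM in the diaphragm, 23.6 to 111 TPM in tibialis anterior and 49.3 to 107 TPM in soleus.

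**Figure D2:**
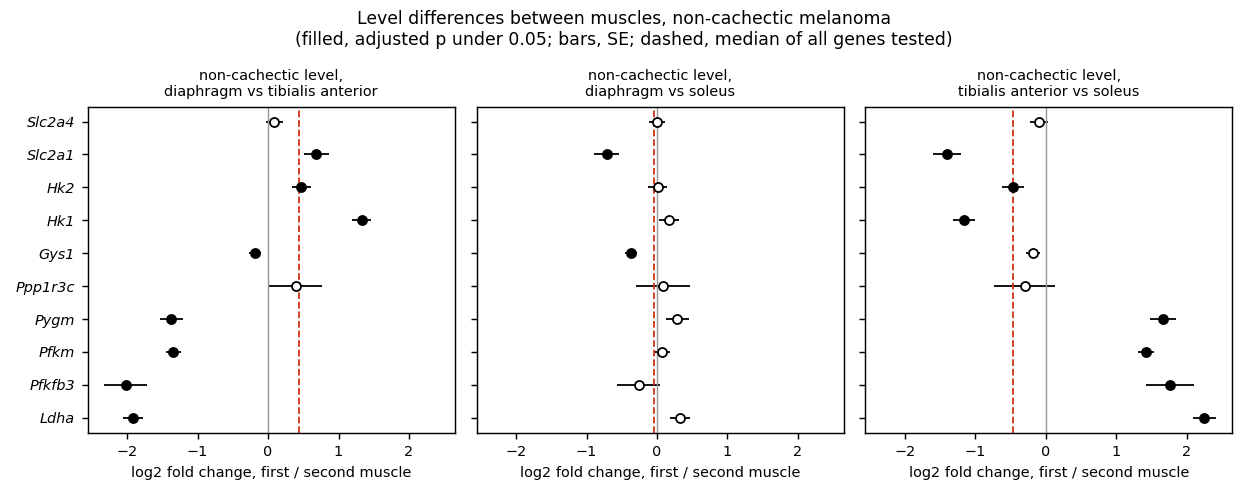
Log2 differences in level of the 10 genes between muscles of mice with the non-cachectic melanoma, with bars of 1 SE on each side, for the 3 pairs of muscles. Ldha, Pygm, Pfkm and Pfkfb3 lie on the tibialis anterior side of both comparisons with that muscle, and Hk1 and Slc2a1 on the other. Hk2, whose values are 0.47 and -0.46 there, changed sign after median-ratio scaling.

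The central comparison asked how the genes differ between mice with the cachectic and the non-cachectic melanoma. In the mock diaphragm 5 of the 10 members were called higher and none lower, against 33.5% of the 13426 genes tested (30.9% higher and 2.67% lower), with a median log2 difference of 0.30 over the members and 0.20 over all genes. The count by direction depends on scaling in this comparison, since 92.0% of all called genes were higher as deposited, 45.9% after median-ratio scaling and 47.6% without mitochondrial transcripts. Slc2a1, Ppp1r3c and Pfkfb3 remained called higher after median-ratio scaling, while Pfkm was then called lower, and without mitochondrial transcripts Pfkfb3 was at 0.82 (adjusted p = 0.0722).

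Over all mock libraries Ppp1r3c showed the largest difference among the members, while within high-state libraries that of Pfkfb3, given below, was larger. It was at 32.5 to 260.3 TPM (median 88.8) in non-cachectic and 149 to 667 TPM (median 203) in cachectic mock libraries. The groups overlapped widely, with 3 of 10 cachectic libraries above every non-cachectic one. The log2 difference was 1.65 (SE 0.32, adjusted p = 0.000303), and it was 1.42 after median-ratio scaling, 1.29 with library state as a term and 0.78 (adjusted p = 0.250) within the 9 cachectic and 3 non-cachectic high-state libraries.

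Slc2a1 separated the groups more cleanly. It was at 5.00 to 7.06 TPM (median 6.60) in non-cachectic and 6.41 to 22.1 TPM (median 10.8) in cachectic libraries, and 9 of the 10 cachectic libraries lay above the whole non-cachectic range. The log2 difference was 0.73 (SE 0.18, adjusted p = 0.00276), with 0.53 after median-ratio scaling and 0.74 (adjusted p = 0.110) within high-state libraries. The insulin-responsive Slc2a4 was at 283 to 376 TPM (median 340.5) and 223 to 437 TPM (median 380.1), a difference of 0.14 that was not called (adjusted p = 0.255) and was -0.10 after median-ratio scaling. Without cachectic mock library 22 (its column number), which held the lowest Slc2a4, Slc2a1, Hk1, Hk2, Ppp1r3c and Gys1 of its group, the difference as deposited was called (adjusted p = 0.0304).

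Of the enzymes, Pfkfb3 was at 5.42 to 11.4 TPM (median 8.19) in non-cachectic and 8.82 to 59.8 TPM (median 15.4) in cachectic libraries. In cachectic mice 9 of 10 libraries lay above the non-cachectic range, and the difference was 1.01 (SE 0.31, adjusted p = 0.0125). The highest value came from cachectic mock library 20, which also held the highest Slc2a1 and Hk2 and the lowest Ldha, Pygm and Pfkm of its group. Gys1, at 259 to 326 TPM (median 276) and 275 to 440.4 TPM (median 374), differed by 0.39 (SE 0.10, adjusted p = 0.00288), and Hk1, at 4.83 to 6.96 TPM (median 6.08) and 5.71 to 9.93 TPM (median 7.72), by 0.35 (SE 0.12, adjusted p = 0.0225). Neither of the 2 remained called after median-ratio scaling (0.16 and 0.14). Within high-state libraries, where 5.69% of all genes were called, none of the 3 was called, at 0.95 (adjusted p = 0.158) for Pfkfb3, 0.35 (adjusted p = 0.138) for Gys1 and 0.46 (adjusted p = 0.101) for Hk1.

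The remaining 4, like Slc2a4, were not called as deposited. Ldha was at 392 to 483 TPM (median 418) and 294 to 719 TPM (median 530.4), a difference of 0.26 (adjusted p = 0.0776), and was called without library 20 and under the Dunn test of the study (adjusted p = 0.0173). Pfkm was at 955 to 1217 TPM (median 1099.7) and 723 to 1201 TPM (median 952), and its difference of -0.17 became -0.41 and was called after median-ratio scaling. Pygm (1052 to 1456 against 922 to 1708 TPM) and Hk2 (138 to 202 against 103 to 249 TPM) differed by -0.042 and 0.092, and the sign of Hk2 turned after median-ratio scaling (-0.14).

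Markers of other cells were read in the same libraries. Of 6 endothelial markers 4 were called higher and none lower (1 and 1 after either of the other scalings), with summed levels of 183 to 244 TPM in non-cachectic and 209 to 297 TPM in cachectic mock diaphragm. Of 5 macrophage markers 2 were called higher (32.2 to 67.0 against 43.0 to 164 TPM summed), and of 4 neutrophil markers tested 3 (3.98 to 24.7 against 11.2 to 61.5 TPM summed). After median-ratio scaling 2 macrophage and 2 neutrophil markers were called higher, and without mitochondrial transcripts 2 and 3. No marker of these lists was at 0 in any library of the 2 groups, and the part of such cells in the differences of Slc2a1, Hk1 and the other members was not tested.

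**Figure D3:**
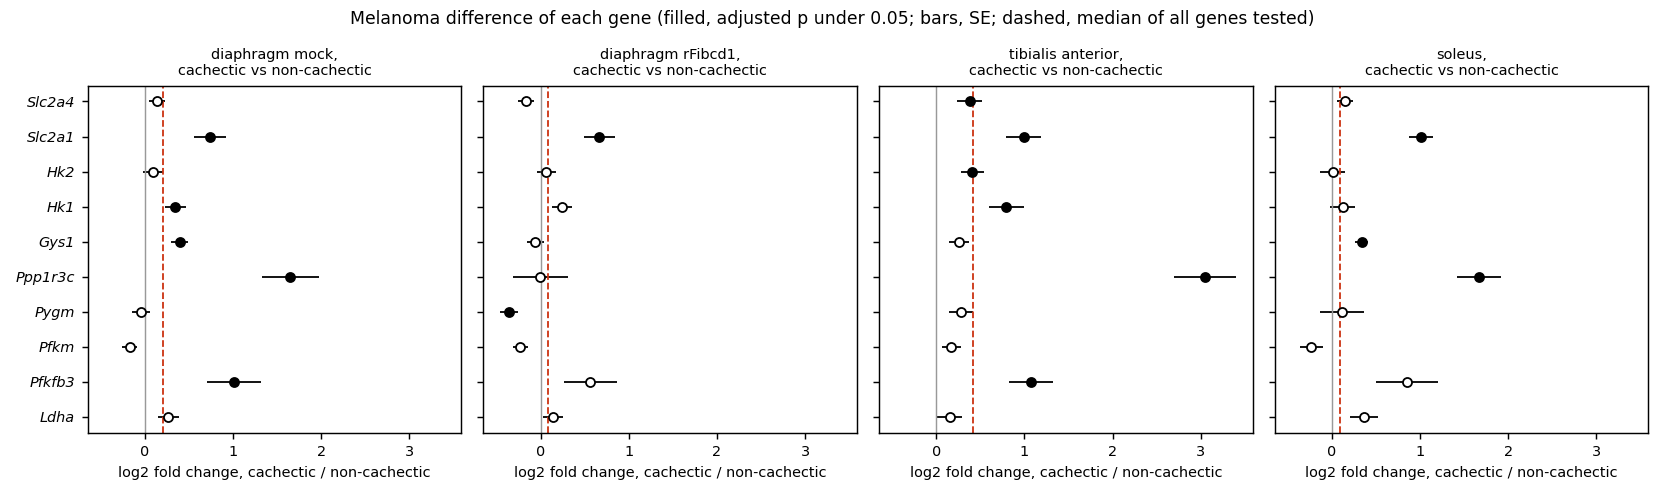
Log2 difference of each gene between cachectic and non-cachectic mice, with bars of 1 SE on each side, in 4 panels for the diaphragm with mock, the diaphragm with rFibcd1, tibialis anterior and soleus. Filled points were called. Ppp1r3c and Slc2a1 were called in all 3 muscles without rFibcd1, at 1.65, 3.05 and 1.67 for Ppp1r3c. The dashed medians of all genes are 0.20, 0.41 and 0.09 in the panels without rFibcd1, and Slc2a4 and Hk2 changed sign in the diaphragm and tibialis anterior after median-ratio scaling.

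In tibialis anterior 6 of the 10 members were called higher and none lower, against 60.2% of the 11105 genes tested (56.4% higher and 3.78% lower), and the median log2 difference was 0.39 over the members and 0.41 over all genes. Of all called genes 93.7% were higher as deposited, 49.1% after median-ratio scaling and 81.7% without mitochondrial transcripts. Of the 6 members 3 (Ppp1r3c, Slc2a1 and Hk1) remained called after median-ratio scaling.

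Ppp1r3c was at 23.6, 52.6, 66.03, 95.3 and 111 TPM in the non-cachectic and 354, 482, 499.9, 624.98 and 689.9 TPM in the cachectic libraries. The groups did not overlap. The log2 difference was 3.05 (SE 0.35, adjusted p = 0.000144), or 2.57 after median-ratio scaling. Its share among the glycogen targeting subunits went from a median of 33.8% (13.8% to 48.9%) to 78.4% (72.3% to 85.5%), while the share of Ppp1r3a went from 65.0% to 21.1%.

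Slc2a1 was at 2.98, 3.43, 3.52, 3.65 and 3.95 TPM and 5.80, 6.21, 6.70, 8.84 and 14.4 TPM, again without overlap. Its log2 difference was 0.99 (SE 0.20, adjusted p = 0.00324), and 0.59 after median-ratio scaling. Hk1 was at 1.505, 1.54, 1.66, 1.91 and 2.02 TPM and 2.58, 2.79, 3.32, 3.78 and 7.36 TPM, without overlap, with a difference of 0.80 (SE 0.20, adjusted p = 0.00838) and 0.44 after median-ratio scaling. The highest Slc2a1 and the highest Hk1 came from cachectic library 8, which also had the lowest mitochondrial share (25.1%) and the highest summed endothelial markers (264 TPM) of its group.

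Pfkfb3 was at 23.1, 25.7, 40.3, 43.1 and 57.7 TPM and 50.3, 69.4, 89.3, 90.0 and 95.0 TPM, with 1 cachectic library inside the non-cachectic range. Its difference was 1.07 (SE 0.25, adjusted p = 0.00582), and 0.60 (adjusted p = 0.141) after median-ratio scaling. Slc2a4 (288, 295, 320.3, 323 and 326 against 319, 357, 399.9, 408 and 573 TPM) and Hk2 (107, 112, 119, 119.9 and 143 against 136, 136, 161, 162 and 209 TPM) were called at 0.38 and 0.41, neither above the median of all genes, and had the opposite sign after median-ratio scaling (-0.10 and -0.07). The call on Slc2a4 was lost in 7 of 10 fits that left out 1 library, and that on Hk2 without non-cachectic library 61. Ldha (1330.4 to 1879.7 against 1415 to 2255 TPM), Pfkm (2365 to 3021 against 2624 to 3689 TPM), Gys1 (309.7 to 355 against 333 to 468 TPM) and Pygm (2583 to 3637 against 2996 to 4564 TPM) were not called. Their differences of 0.15, 0.17, 0.25 and 0.28 all had the opposite sign after median-ratio scaling, though Gys1 was called without cachectic library 6 and Pygm without cachectic library 8. Of the endothelial markers 4 of 6 were called higher and 1 lower (95.0 to 132 against 124 to 264 TPM summed), and of the macrophage markers 4 of 4 tested were higher (4.65 to 8.69 against 7.33 to 51.0 TPM summed, none at 0). Both neutrophil markers tested were higher (1.27 to 4.18 against 7.96 to 57.4 TPM summed over 5 genes, 1 of which was at 0 in a non-cachectic library), and their part in these differences was not tested.

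In soleus 3 of the 10 members were called higher and none lower, against 25.1% of the 11957 genes tested (17.5% higher and 7.54% lower), with a median of 0.24 over the members and 0.09 over all genes. Of all called genes 70.0% were higher as deposited, 51.3% after median-ratio scaling and 24.5% without mitochondrial transcripts. Ppp1r3c was at 49.3, 60.4, 88.5, 89.0 and 107 TPM in non-cachectic and 169, 180.0, 238, 339.7 and 344 TPM in cachectic libraries, without overlap, a difference of 1.67 (SE 0.25, adjusted p = 0.00117). Slc2a1 was at 9.03, 10.3, 10.97, 11.3 and 12.9 TPM and 18.2, 21.1, 22.3, 23.2 and 31.7 TPM, without overlap, a difference of 1.01 (SE 0.14, adjusted p = 0.00060). Both remained called after either of the other scalings. Gys1, at 339, 364, 368, 375 and 387 TPM and 436, 446, 453, 469 and 515 TPM, did not overlap either and differed by 0.34 (SE 0.073, adjusted p = 0.00711). Without mitochondrial transcripts it was at 0.10 (adjusted p = 0.286), and Pfkm was then called lower, at -0.47.

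The other 7 were not called in soleus. Pfkfb3 had 4 of 5 cachectic libraries above the non-cachectic range (7.69, 9.18, 10.2, 11.3 and 11.6 against 7.67, 15.1, 17.6, 22.0 and 47.8 TPM), and its difference of 0.85 (SE 0.35, adjusted p = 0.0969) was called without cachectic library 6 (adjusted p = 0.0128). The lowest Pfkfb3 of the cachectic group was in that library. Cachectic library 7 stood apart from its group in the fast-fiber direction, with Myh4, the myosin of the fastest fibers, at 4989 TPM (69.8 TPM in the next library of its group), Pygm at 2340 TPM, Ldha at 696 TPM and Pfkfb3 at 47.8 TPM. Without it the difference of Pygm was -0.16 in place of 0.11, with neither called. Hk1 (0.12), Hk2 (0.011) and Slc2a4 (0.15) did not pass the test, and each of the 3 was below 0 without mitochondrial transcripts. The 5 cachectic libraries were more spread, with 2 above and 3 below the non-cachectic range for Hk2, and 3 above and 1 below it for Slc2a4. Endothelial markers (1 of 6 higher, 1 lower, 167 to 212 against 163 to 264 TPM summed) and macrophage markers (1 of 5 higher, 16.3 to 25.8 against 15.7 to 108 TPM summed) were called in these numbers where 25.1% of all genes were called, and both neutrophil markers tested were higher (3.45 to 5.27 against 8.34 to 33.5 TPM summed). Of these lists no marker was at 0.

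Counted across muscles, 2 of the 10 members (Ppp1r3c and Slc2a1) were called higher in all 3, against 12.3% of the 10914 genes tested in each of them, and none was called lower in all 3 (0.898%). Whether the size of the melanoma effect differed between muscles was tested in the fit of 39 libraries. Of the 10 members 1 differed between tibialis anterior and soleus (20.4% of all genes), and 0 differed between diaphragm and tibialis anterior (5.04%) or between diaphragm and soleus (2.52%) by limma, with 3 and 0 at an unadjusted p under 0.05. The gene that differed was Hk1, whose effect was larger in tibialis anterior by 0.67 (SE 0.22, adjusted p = 0.0322). It was 0.42 (adjusted p = 0.0678) after median-ratio scaling, under which Gys1 was called instead (-0.48), and the call was lost in 6 of 39 fits that left out 1 library (tibialis anterior 8, 61 and 63, soleus 6, 7 and 65), with 0.47 without tibialis anterior library 8. The effect on Ppp1r3c was 1.38 larger in tibialis anterior than in soleus (adjusted p = 0.0968) and -1.40 in the diaphragm relative to tibialis anterior (adjusted p = 0.109). With the column number as a replicate block, which pairs libraries of different muscles, 3 members were called between tibialis anterior and soleus (41.2% of all genes), Ppp1r3c (adjusted p = 0.0209), Pfkm (0.41, adjusted p = 0.0233) and Hk1 (adjusted p = 0.00194), and Hk1 was also called between diaphragm and tibialis anterior (-0.46, adjusted p = 0.0331, with 17.2% of all genes). These 3 comparisons share groups with each other and with the comparisons within muscles.

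With rFibcd1 in both groups, the melanomas were compared again in the diaphragm, and 2 of the 10 members were called (9.11% of all genes), 1 higher (7.14%) and 1 lower (1.97%). The median was 0.028 over the members and 0.084 over all genes. Slc2a1 was at 4.72 to 9.39 TPM (median 6.82) in non-cachectic and 7.44 to 36.6 TPM (median 9.92) in cachectic rFibcd1 libraries, a difference of 0.67 (SE 0.18, adjusted p = 0.0154). Of the 10 cachectic libraries 7 lay above the non-cachectic range. The highest value was that of library 1, in which Hk1 (15.1 TPM) and the summed macrophage markers (342 TPM) were also the highest of the group. Pygm was at 1093 to 1426 TPM (median 1374) and 712 to 1357 TPM (median 1035), with 6 cachectic libraries below the non-cachectic range and a difference of -0.36 (SE 0.10, adjusted p = 0.0184). Ppp1r3c was at 146 to 449 TPM (median 274) and 142 to 694 TPM (median 273), with a log2 difference of -0.0049 (SE 0.31, adjusted p = 0.994). Without mitochondrial transcripts 2 further genes, Slc2a4 (-0.32) and Pfkm (-0.38), were called lower. The Dunn test, a fit of the 2 groups alone and a fit of the high-state libraries called 0 members, and in each of them 3 had an unadjusted p under 0.05. Over all genes the Dunn test and the high-state fit also called 0, and the 2-group fit 2.61%.

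The effect of rFibcd1 was then tested within each melanoma. In cachectic mice limma called 0 of the 10 members (0.0447% of all genes), while 3 had an unadjusted p under 0.05, and 0 by the Dunn test, with 2. The median was -0.058 over the members and 0.035 over all genes. Gys1 had the lowest adjusted p. It was at 275 to 440.4 TPM (median 374) with mock and 208 to 437 TPM (median 269.8) with rFibcd1, with 5 of 10 rFibcd1 libraries below the mock range, and a difference of -0.41 (SE 0.10, adjusted p = 0.131). Slc2a4 was at 223 to 437 TPM (median 380.1) with mock and 232 to 395 TPM (median 292) with rFibcd1, a difference of -0.29 (SE 0.091, adjusted p = 0.254). Among libraries of the high state (9 mock and 8 rFibcd1), where 5.57% of all genes were called, both were called, at -0.49 (adjusted p = 0.0238) for Gys1 and -0.40 (adjusted p = 0.0196) for Slc2a4. That fit leaves out cachectic mock library 22, the only low-state library of its group. Both were called when library 22 alone was left out, with adjusted p of 0.0288 for Gys1 and 0.0382 for Slc2a4. Gys1 was also called without cachectic rFibcd1 library 3 (adjusted p = 0.00593). Ppp1r3c went from a median of 203 to 273 TPM, a difference of 0.069 (SE 0.31, adjusted p = 0.956), and its highest value with rFibcd1, 694 TPM, was in library 17, against a highest value of 667 TPM with mock.

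In mice with the non-cachectic melanoma, 1 of the 10 members was called between rFibcd1 and mock (0.417% of all genes), and the median was 0.11 over the members and 0.15 over all genes. This was Ppp1r3c, at 32.5 to 260.3 TPM (median 88.8) with mock and 146 to 449 TPM (median 274) with rFibcd1. Of the 10 rFibcd1 libraries 6 lay above the mock range, and the difference was 1.72 (SE 0.32, adjusted p = 0.00340). It was 1.55 (adjusted p = 0.0148) after median-ratio scaling, was not called by the Dunn test (adjusted p = 0.101), and was 0.93 (adjusted p = 0.343) in the 6 rFibcd1 and 3 mock libraries of the high state. The share of Ppp1r3c among the targeting subunits was 82.7% with rFibcd1, as against 65.0% with mock. The non-cachectic mock libraries are the controls both here and in the mock comparison of the melanomas, in which Ppp1r3c differed by 1.65, so the 2 results are not independent.

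Whether the rFibcd1 effect itself differed between the melanomas was tested as an interaction, and limma called 0 of the 10 members (0.0223% of all genes), while 4 had an unadjusted p under 0.05. The difference of effects was -1.65 (SE 0.45, adjusted p = 0.426) for Ppp1r3c and -0.45 (SE 0.14, adjusted p = 0.473) for Gys1.

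Clock genes differed in the same comparison as Ppp1r3c. Of 12 clock genes 3 were called higher and 6 lower with rFibcd1 in non-cachectic mice (0.417% of all genes called). The numbers were the same after median-ratio scaling (0.439%) and without mitochondrial transcripts (0.265%). A clock-gene index was formed as the mean log2(TPM + 1) of 3 genes (Arntl, Npas2 and Clock) minus that of the other 9. Its median was -3.49 in non-cachectic mock, -3.24 in cachectic mock, -0.912 in non-cachectic rFibcd1 and -2.66 in cachectic rFibcd1 libraries. In non-cachectic mice the index nearly coincided with the treatment (-4.29 to -1.61 with mock, -1.80 to 0.847 with rFibcd1), so the index and the treatment cannot be told apart there. Between the melanomas in mock libraries, where the index overlapped, the difference of Ppp1r3c with the index as a term, an alternative added after seeing the data, was 1.36 (adjusted p = 0.000227, with 28.8% of all genes called). Across the 39 diaphragm libraries, after subtracting each group's mean, Pearson's r of Ppp1r3c was 0.69 with Arntl, 0.60 with Clock and 0.44 with Npas2. With the other 9 clock genes it lay between -0.61 (Dbp) and -0.21 (Per2). In the mock comparison of the melanomas 0 clock genes were called higher and 1 lower (33.5% of all genes called). In tibialis anterior the numbers were 2 and 2 of 11 tested (60.2%), and 1 and 5 after median-ratio scaling (40.8%). In soleus they were 1 and 6 of 11 (25.1%). The hour at which muscles were taken is not given in the sources used here. Apart from the fit with the index as a term, the part of the clock in these differences was not tested. The E-box printed above belongs to this gene, but the data hold no measure of binding to it.

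**Figure D4:**
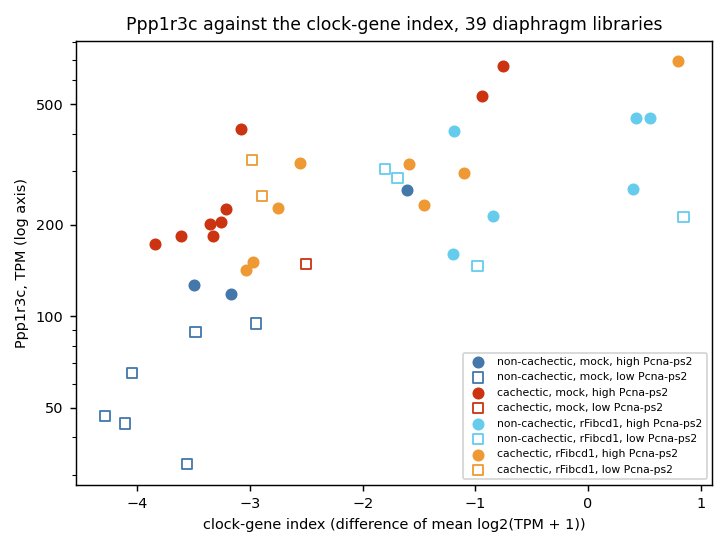
Ppp1r3c in TPM (log axis) against the clock-gene index of each of the 39 diaphragm libraries, with the 4 groups in different markers and filled points for the high state of Pcna-ps2. Most non-cachectic mock libraries lie at low index and low Ppp1r3c, with library 66 apart at -1.61 and 260.3 TPM. The non-cachectic rFibcd1 libraries lie at higher values of both (index medians -3.49 and -0.912). The 2 cachectic mock libraries with the highest Ppp1r3c (667 and 533 TPM) have the 2 highest indices of their group (-0.754 and -0.939). The next-highest index there (-2.50, library 22) goes with the lowest Ppp1r3c (149 TPM), and library 10 has 413 TPM at -3.08.

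Ratios of genes in 1 library do not move with its scaling. The ratio of Slc2a4 to Slc2a1 had a lower median with the cachectic melanoma in each muscle. In tibialis anterior it was 79.0 to 108 (median 83.6) in non-cachectic and 39.8 to 69.0 (median 51.3) in cachectic libraries, and in soleus 27.4 to 35.2 (median 29.5) and 13.8 to 20.1 (median 15.1), with no overlap in either. In the diaphragm it was 44.0 to 62.6 (median 51.2) and 16.8 to 45.0 (median 33.8) with mock, and 31.6 to 64.6 (median 49.4) and 6.35 to 53.0 (median 28.0) with rFibcd1, with overlap. GLUT4 transcripts thus outnumbered GLUT1 transcripts in every library. The ratio of Hk2 to Hk1 was lower in cachectic tibialis anterior without overlap, at 62.8 to 78.9 (median 69.2) against 28.3 to 52.8 (median 48.6). Its medians were 31.0 and 34.7 in soleus. In the diaphragm they were 28.4 and 22.2 with mock, and 24.3 and 23.9 with rFibcd1, with overlap. The ratio of Gys1, the synthase, to Pygm, the phosphorylase, had medians of 0.227 and 0.323 in non-cachectic and cachectic mock diaphragm, 0.375 and 0.488 in soleus and 0.0914 and 0.0850 in tibialis anterior. These are unequal levels and say nothing of which gene of a pair changed.

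**Figure D5:**
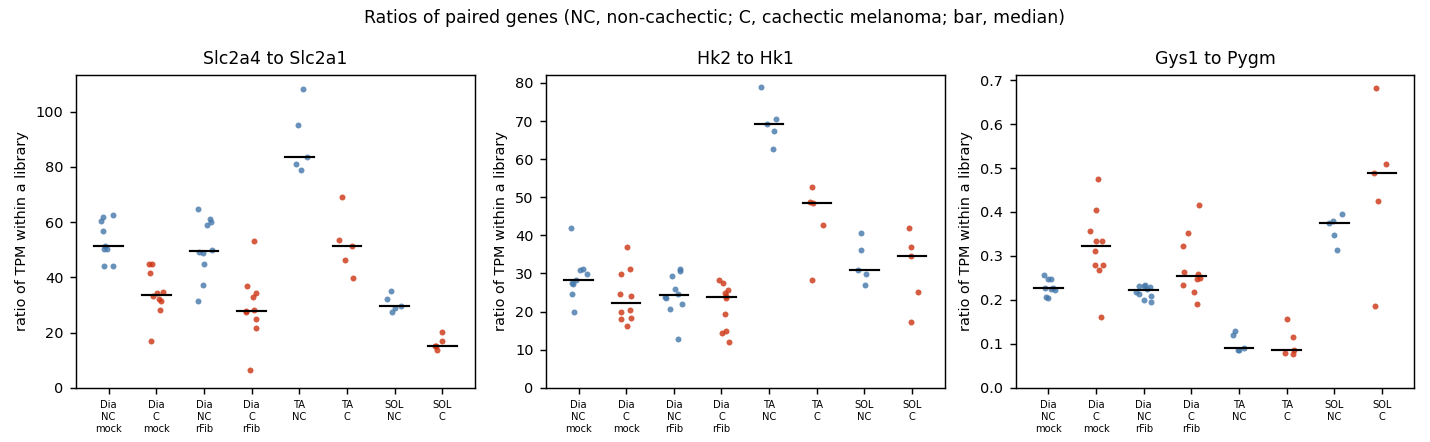
Ratio of TPM within a library for 3 pairs of genes (axes from 0) in the 8 groups, with 1 point per library and a bar at the median. The ratio of Slc2a4 to Slc2a1 falls into separate ranges with the non-cachectic and cachectic melanoma in tibialis anterior, at 79.0 to 108 (median 83.6) and 39.8 to 69.0 (median 51.3), and in soleus, and overlaps in the diaphragm.

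The pathway around the members was followed through 94 further genes in 6 lists. With the cachectic melanoma, 26 of 91 tested were called higher and 5 lower in the mock diaphragm (median 0.20), 36 and 7 of 85 in tibialis anterior (median 0.32) and 14 and 6 of 90 in soleus (median 0.09). Over all genes 30.9% were higher and 2.67% lower in the diaphragm, 56.4% and 3.78% in tibialis anterior, and 17.5% and 7.54% in soleus. These counts depend on the scaling. After median-ratio scaling 4 were higher and 16 lower in the diaphragm, 14 and 24 in tibialis anterior and 7 and 8 in soleus. Of all genes 16.2%, 40.8% and 28.2% were then called, and of those 45.9%, 49.1% and 51.3% were higher. Without mitochondrial transcripts the counts were 3 and 15, 30 and 14, and 3 and 20. Under that setting 13.5%, 47.6% and 30.5% of all genes were called, of which 47.6%, 81.7% and 24.5% were higher. Of the genes of glucose uptake and GLUT4 traffic 7 of 15 tested were higher and none lower in the diaphragm, 10 of 14 higher in tibialis anterior, and 2 higher and 1 lower of 14 in soleus. After median-ratio scaling 1, 4 and 2 of them were higher and 0, 1 and 2 lower in these muscles, and without mitochondrial transcripts 2, 9 and 1 higher and 0, 0 and 3 lower. Of the other glycolytic genes 5 of 19 were higher in the diaphragm, 7 higher and 2 lower of 17 in tibialis anterior, and 4 higher and 1 lower of 18 in soleus. Pyruvate and lactate handling had 2 higher and 3 lower of 17, 2 and 5, and 1 and 4 in the same order, and after median-ratio scaling 0 and 6, 1 and 11, and 0 and 4. Glycogen synthesis had 3 higher and 1 lower of 15, 7 and 0 of 13, and 2 and 0 of 16. Glycogen breakdown had 4 and 1 of 10, 4 and 0 of 9, and 3 and 0 of 10, and the regulators of glucose use 5, 6 and 2 higher of 15 with none lower.

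Of these genes 9 were called higher in all 3 muscles and 1 lower, against 12.3% and 0.898% of all genes tested in each. Aspscr1 (TUG), which holds GLUT4 in its stores inside the cell, differed by 0.57 (SE 0.12, adjusted p = 0.000396) in the diaphragm and 0.84 (SE 0.13, adjusted p = 0.00113) in soleus. Gpi1, which converts glucose-6-phosphate to fructose-6-phosphate, differed by 0.64 (SE 0.11, adjusted p = 8.21e-05) in the diaphragm. Both were also called higher in tibialis anterior, and in all 3 muscles after either of the other scalings. Ldhb was the gene called lower in all 3, with -1.02 (SE 0.27, adjusted p = 0.00999) in tibialis anterior, and it remained lower after both other scalings in each muscle. The share of Ldha in the family was 30.6% in cachectic mock diaphragm, 29.7% in cachectic soleus and 95.7% in cachectic tibialis anterior, each above the non-cachectic values given earlier.

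Among pathway genes of a mean TPM of at least 5, the lowest differences in soleus were those of Tbc1d4 (AS160, the Akt substrate that restrains GLUT4 traffic), at -1.30 (SE 0.17, adjusted p = 0.000490), and of Pfkfb1, at -1.03 (SE 0.17, adjusted p = 0.00219). In tibialis anterior Pik3r1, the regulatory subunit of phosphoinositide 3-kinase, was higher by 1.5 (SE 0.33, adjusted p = 0.00449) and Pfkfb1 lower, at -0.55 on the log2 scale. In the mock diaphragm Phkg1, the catalytic subunit of muscle phosphorylase kinase, and Ldhd were lower, at -0.53 and -0.34. With rFibcd1 in both groups 5 of 91 pathway genes were higher and 1 lower with the cachectic melanoma (9.11% of all genes called), against 13 called after median-ratio scaling (9.40%), 18 without mitochondrial transcripts (8.67%), 12 with state as a term (10.1%) and 0 by the Dunn test (21 unadjusted). Among the 6 were Pfkfb4 (0.50), Pik3r1 (0.47) and, as the lower one, Dlat (-0.37). Between rFibcd1 and mock limma called 0 of 91 with either melanoma, while 14 (cachectic) and 9 (non-cachectic) had an unadjusted p under 0.05, and the Dunn test called 0, with 11 and 15. Other fits gave more calls. A fit of the 2 groups alone called 12 pathway genes with the non-cachectic melanoma, where it called 19.6% of all genes, and a fit of the high-state libraries called 7 with the cachectic one, where it called 5.57%.

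Some pathway genes differed far more in level between muscles than the members did. Slc16a3 (MCT4, which exports lactate) was 5.20 higher on the log2 scale in tibialis anterior than in soleus and differed by -4.91 for diaphragm minus tibialis anterior. Tbc1d1, the partner of Tbc1d4 in fast muscle, differed by 3.08 and -3.54, and Ldhb by -3.37 and 3.19. Tbc1d4 was higher in the diaphragm than in tibialis anterior by 2.91, and Pygb, the brain form of the phosphorylase, lower in tibialis anterior than in soleus (-2.65). Between diaphragm and soleus the largest steps were smaller, at 0.83 for Pdp2, 0.77 for Phkg1, -1.01 for Gyg, the glycogenin that primes glycogen, and -1.15 for Pfkfb4. All of these were called, also after either of the other scalings.

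Across the 39 diaphragm libraries, which differ in state and mitochondrial share as described above, likeness was measured by Pearson's r of log2(TPM + 1) after subtracting each group's mean. It was 0.74 between Pygm and Pfkm, 0.64 between Slc2a1 and Hk1, 0.63 between Slc2a4 and Hk2 and 0.57 between Pfkm and Ldha, and it was -0.43 between Gys1 and Ldha and -0.40 between Slc2a1 and Pfkm. Among 9056 genes, the gene with the pattern most like that of Slc2a4 was Ank (0.79), of Slc2a1 Litaf (0.87), of Hk1 Bak1 (0.89), of Hk2 Gpr157 (0.71) and of Ppp1r3c Ciapin1 (0.75). For Pygm it was Scn4b (0.81), for Gys1 Pcnt (0.81), for Pfkm Ak1 (0.87), for Pfkfb3 Ypel5 (0.83) and for Ldha Tmem109 (0.87). Genes of the same pathway stood among the 3 most alike for Pfkm (Pkm, 0.83, and Phkg1, 0.82), for Ldha (Tpi1, 0.83) and for Gys1 (Gaa, 0.79).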

How the data were processed

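RNA-seq of 59 muscle samples was used, with libraries grouped from the sample labels. Per the study's methods, the authors trimmed and quality-filtered paired reads and aligned them to GRCm38 (mm10) with CLC Genomics Workbench, whose output, the deposited values, is in TPM, and every column sums to 1000000. The annotation is not given in the sources used here. The labels (stranded mRNA kit, HiSeq) and the methods (another kit, NovaSeq) name different library preparation and instruments. Each column carries its group and a number, which matches no replicate number of the labels unambiguously. The numbers recur across muscles without the labels saying what they share. Deviations of same-numbered libraries correlated at 0.133 to 0.502 for diaphragm with tibialis anterior, 0.196 to 0.493 for tibialis anterior with soleus and 0.0101 to 0.450 for diaphragm with soleus (10 pairs each), and the own number was the best match in 50 of 60, so the pairing comes from the data. No 2 of the 1711 pairs of libraries held identical values.

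Here, log2(TPM + 1) was computed (differences on this scale understate changes of low genes), genes with TPM of at least 1 in as many libraries as the smallest group of the fit were kept, and groups were compared with limma 3.58.1 in R 4.3.3 (lmFit, contrasts.fit, eBayes with trend, two-sided, Benjamini-Hochberg over all genes tested, called at 0.05). The 4 diaphragm groups entered 1 fit, tibialis anterior and soleus 1 each, and the 6 groups without rFibcd1 another. The Dunn test of the study was an alternative, called by the same adjusted p and without the fold limits that the study set beside its p cutoff. Other alternatives were a pseudocount of 0.1, no filter, a mean TPM of 5, median-ratio scaling and removal of mitochondrial transcripts. Further ones were 2-group fits, library state, a clock-gene index, a replicate block and leaving out each library (98 fits). The fit was tested on simulated data. The members, lists and tests were chosen with earlier results of these data known. The text names all members and, per comparison, up to 2 called pathway genes with the highest and 2 with the lowest difference. Gene positions are from GENCODE M21, promoters from RefSeq (GRCm38.p6).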

Additional observations from a re-analysis of the deposited data

Results flagged for a closer look

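In 9 of the 80 combinations of a member and a group examined, 1 library stood further from the rest than Dixon's 95% limit allows, and chance alone places about 1 in 20 groups past it. Cachectic mock diaphragm library 22 held Slc2a4 at 223 TPM (next lowest 335 TPM) and Hk2 at 103 TPM (next lowest 161 TPM). Cachectic mock library 20 held Pfkfb3 at 59.8 TPM (next highest 22.0 TPM) and Ldha at 294 TPM (next lowest 467 TPM). Non-cachectic rFibcd1 library 56 held Hk1 at 9.80 TPM (next highest 7.39 TPM) and Pygm at 1093 TPM (next lowest 1305 TPM). Cachectic rFibcd1 library 1 held Slc2a1 at 36.6 TPM (next highest 12.01 TPM), library 17 of the same group held Ppp1r3c at 694 TPM (next highest 328 TPM), and cachectic soleus library 7 held Ldha at 696 TPM (next highest 429 TPM).

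The test of the difference itself showed which of the 94 listed pathway genes had an unequal melanoma difference in 2 muscles. They numbered 6 for the diaphragm with tibialis anterior (5.04% of all genes called) and 2 for the diaphragm with soleus (2.52%). For the limb muscles they numbered 16 (20.4%), and 1 member (Hk1) was also called there. With the column number as a replicate block the counts were 20 (17.2% of all genes), 6 (7.36%) and 36 (41.2%). Values of 9 of the results without the block follow. The effect on Hk1 was larger in tibialis anterior than in soleus by 0.67 on the log2 scale. For diaphragm minus tibialis anterior the difference of effects was -0.89 (SE 0.25, adjusted p = 0.0316) for Gaa, the lysosomal glucosidase that digests glycogen, and -0.93 (SE 0.27, adjusted p = 0.0366) for Pik3r1. For diaphragm minus soleus it was 1.16 (SE 0.20, adjusted p = 0.000799) for Tbc1d4 and 0.79 (SE 0.22, adjusted p = 0.0438) for Pygb. For tibialis anterior minus soleus it was 1.54 (SE 0.23, adjusted p = 4.31e-05) for Tbc1d4, 1.05 (SE 0.33, adjusted p = 0.0243) for Pdp1, a phosphatase that activates pyruvate dehydrogenase, -0.35 (SE 0.12, adjusted p = 0.0434) for Pdhb, a subunit of that enzyme, and -0.77 (SE 0.23, adjusted p = 0.0184) for Pgam2, the muscle phosphoglycerate mutase. These comparisons share groups.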

How the results depend on the processing

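Of 959 values under the alternatives, over all members and all 13 comparisons, 80 had another sign than as deposited, 4 of them among the 256 values of called members, and 3 of the 80 were called. Of the values given in the text, after median-ratio scaling the sign turned in the mock diaphragm for Slc2a4 (-0.096) and Hk2 (-0.14), in tibialis anterior for Slc2a4 (-0.10), Hk2 (-0.070), Pygm (-0.20), Gys1 (-0.23), Pfkm (-0.31) and Ldha (-0.33), in soleus for Hk2 (-0.097), for diaphragm minus tibialis anterior levels for Slc2a4 (-0.45) and Hk2 (-0.070), and for tibialis anterior minus soleus levels for Slc2a4 (0.51), Hk2 (0.14) and Gys1 (0.42). Without mitochondrial transcripts it turned in the mock diaphragm for Slc2a4 (-0.10) and Hk2 (-0.14), in tibialis anterior for Pfkm (-0.068) and Ldha (-0.088), in soleus for Slc2a4 (-0.087), Hk1 (-0.087), Hk2 (-0.23) and Pygm (-0.13), and for tibialis anterior minus soleus levels for Slc2a4 (0.10) and Gys1 (0.012). The difference of Hk2 in the mock diaphragm was -0.0085 with state as a term, and that of Ppp1r3c between rFibcd1 and mock with the cachectic melanoma -0.039 within high-state libraries.

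Of the 10 members, 3 were called in the mock diaphragm without mitochondrial transcripts (13.5% of all genes) and 3 with state as a term (15.3%), in place of 5, and 0 within high-state libraries (5 at an unadjusted p under 0.05; 5.69%). With rFibcd1 in both groups 4 were called without mitochondrial transcripts (8.67%), and 0 under the Dunn test (0%), in the 2-group fit (2.61%) and within high-state libraries (0%), with 3 each unadjusted. Between rFibcd1 and mock 2 were called within high-state libraries with the cachectic melanoma (5.57%), and 0 under the Dunn test (1 unadjusted, 0.104%), within high-state libraries (0 unadjusted, 0%) and with the clock-gene index, which nearly coincides with the groups (0 unadjusted, 0%), with the non-cachectic one. In tibialis anterior 3 were called after median-ratio scaling (40.8%). For levels, 5 were called between diaphragm and soleus without mitochondrial transcripts (44.2%) and 0 under the Dunn test (2 unadjusted, 8.73%), which called 4 in each of the other pairs of muscles (51.0% and 37.0%). For the melanoma effect, diaphragm against tibialis anterior had 1 call after median-ratio scaling (5.04%) and 1 without mitochondrial transcripts (16.8%), and tibialis anterior against soleus 0 without the filter (3 unadjusted, 9.89%). The causes were not tested.

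Leaving out 1 library gave 5 to 6 calls in the mock diaphragm, 2 to 3 with rFibcd1, 0 to 2 between rFibcd1 and mock with the cachectic melanoma, 4 to 7 in tibialis anterior, 3 to 4 in soleus, 0 to 2 for the difference of effects between tibialis anterior and soleus, and 7 to 8 and 2 to 3 for levels of the diaphragm against tibialis anterior and soleus. The value of Ppp1r3c then ranged from -0.16 to 0.097 between the melanomas with rFibcd1 and from -0.083 to 0.22 between rFibcd1 and mock with the cachectic melanoma, that of Pygm from -0.098 to 0.0012 in the mock diaphragm and from -0.16 to 0.25 in soleus, and that of Hk2 from -0.090 to 0.080 in soleus.

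The column number was also used as a replicate block (consensus correlation 0.381). For the melanoma effects, 3 members in place of 1 were called between tibialis anterior and soleus (41.2% of all genes against 20.4%). Between diaphragm and tibialis anterior it was 1 in place of 0 (17.2% against 5.04%). For levels, 8 in place of 7 were called between tibialis anterior and soleus (76.1% against 69.5%). Between diaphragm and soleus it was 3 in place of 2 (Ldha, 0.31, adjusted p = 0.0384), with 49.9% of all genes against 38.8%. No other member call changed with the block. Depth is unknown, so low genes have no stated limit.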

Other observations

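Among the pathway genes, 2 further ones were chosen after their values were seen because both other scalings called them lower with the cachectic melanoma in all 3 muscles, although the deposited TPM did not do so in each. Ldhd, which oxidizes D-lactate, differed after median-ratio scaling by -0.57 (diaphragm with mock), -0.67 (tibialis anterior) and -0.71 (soleus), and without mitochondrial transcripts by -0.58, -0.45 and -0.86. Pfkfb1, a phosphofructokinase-2 gene of the same family as Pfkfb3, differed by -0.58, -1.01 and -1.12 after median-ratio scaling, and by -0.60, -0.80 and -1.29 without mitochondrial transcripts.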
